A study of Homo sapiens with 8 samples.

Results

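The replication-dependent clustered histone genes encode the H1 linker histone and the core histones H2A, H2B, H3 and H4. They were taken as every symbol of the RNA count tables with the standard clustered-histone name pattern, which gave 65 of 43682 symbols: 5 H1, 16 H2A, 17 H2B, 13 H3 and 14 H4 genes. By RefSeq, 54 lie on chromosome 6 and 11 on chromosome 1. The libraries came from UM-RC-2, an established clear cell renal cell carcinoma line carrying VHL p.Arg82Pro per the labels. All cells had been infected with lentivirus and selected in blasticidin at 10 µg/ml, so that they stably expressed either VHL, which encodes a tumour suppressor that targets hypoxia-inducible factors for degradation, or a construct named VEC that the labels do not explain. There were 2 libraries of each group, numbered 1 and 2. For both replicate 1 libraries the labels name the molecule as total RNA, and for both replicate 2 libraries as polyA RNA.

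Most mRNAs end in a poly(A) tail, but mRNAs of the clustered histone genes end in a conserved stem-loop. The stem-loop is bound by SLBP, and the transcripts are made mainly in S phase, when new DNA is packed into nucleosomes. NPAT is the coactivator that brings cyclin E and CDK2 signalling to these genes. A minority of clustered histone transcripts can carry a poly(A) tail. In bulk RNA, fewer cells in S phase and less histone RNA per cell cannot be told apart.

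The families differ in the short promoter elements that precede their starts. One promoter per family is shown, as the 120 bases directly before the RefSeq start (GRCh38.p14, 5′ to 3′ on the gene's strand), for the member with the highest level per length among those with a promoter in the table. Capitals mark the motifs searched on both strands: ATTTGCAT (the octamer bound by POU2F1), TATAAA (the TATA box), CCAAT (the box bound by NF-Y), GGTCC (known from H4 promoters) and AAACACA (the H1 box). The positions are chr6:26056471-26056590 (minus strand) for H1-2, chr6:27893186-27893305 (minus) for H2AC17, chr6:26272811-26272930 (plus) for H2BC10, chr6:26032100-26032219 (minus) for H3C2 and chr6:26027284-26027403 (minus) for H4C2.
H1-2: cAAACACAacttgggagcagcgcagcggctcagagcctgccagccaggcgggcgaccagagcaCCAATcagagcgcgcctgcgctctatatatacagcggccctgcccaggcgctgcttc
H2AC17: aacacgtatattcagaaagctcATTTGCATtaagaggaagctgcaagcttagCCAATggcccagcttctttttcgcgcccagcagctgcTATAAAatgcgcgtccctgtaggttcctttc
H2BC10: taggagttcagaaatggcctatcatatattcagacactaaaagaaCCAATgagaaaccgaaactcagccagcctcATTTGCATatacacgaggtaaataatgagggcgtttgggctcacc
H3C2: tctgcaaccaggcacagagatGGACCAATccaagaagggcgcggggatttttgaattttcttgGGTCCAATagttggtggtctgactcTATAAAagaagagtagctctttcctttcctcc
H4C2: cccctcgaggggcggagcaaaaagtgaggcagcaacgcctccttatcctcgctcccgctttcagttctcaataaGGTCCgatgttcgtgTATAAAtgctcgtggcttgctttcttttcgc
In H3C2, the GGTCC letters and the CCAAT letters overlap at both places, once on the opposite strand.

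Of the members, 60 had at least 1 RefSeq window of 300 bases (250 before and 50 after the start), giving 64 windows, and 5 had none. The octamer stood in 15 of 19 H2B and 11 of 15 H2A windows, in 1 of 13 H3 windows and in no H1 or H4 window, against 1.77% of all 35116 windows. CCAAT stood in every H1, H2A, H2B and H3 window and in 3 of 12 H4 windows, against 34.6% of all windows. GGTCC stood in 11 of 12 H4 windows, 44 to 47 bases before the start in each of the 11, while 46.3% of all windows held it somewhere. AAACACA stood in 5 of 5 H1 windows, against 5.64% of all windows, and lay 117 to 119 bases before the start in 4 of them. TATAAA stood in 44 of the 64 member windows, against 11.5% of all windows. These are matches of letters, and binding was not measured.

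Total counts were 21306867 for VEC and 16230291 for VHL in replicate 1, and 50027348 and 46609709 in replicate 2. VHL, the gene introduced, was checked first, with counts that do not separate it from the line's own VHL gene. It had 858 counts in VEC and 2726 in VHL in replicate 1, and 4053 and 6175 in replicate 2. It was higher in VHL in both pairs, by 1.98 and 0.77 on the log2 scale. The edgeR quasi-likelihood test with group as its only term gave a log2 change of 1.24 (adjusted p = 0.999991), and the same test with the replicate number as a block gave 1.36 (SE 0.23, adjusted p = 4.63e-07). All 8 renal markers were detected, while CD3E, PECAM1, CDH5 and VWF were at 0 in every library. PTPRC had 0 counts in both replicate 1 libraries and 72 and 63 in replicate 2. The libraries of a group differ in the labelled RNA fraction, and nothing says that they came from separate cultures, so p-values measure only the spread between these libraries. The group-only fit left 2 residual degrees of freedom and the blocked fit 1, so p-values lean on a spread shared across genes. That shared dispersion was 2.57 in the group-only fit, which includes the gap between the replicates, and 0.0251 in the blocked fit.

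The members held far more of the counts in replicate 1. Their summed level was 4990 CPM (the count scaled to all counts of the library) in VEC and 4256 in VHL in replicate 1, against 36.3 and 38.5 in replicate 2. As shares of the library these are 0.499% and 0.426%, then 0.00363% and 0.00385%. The replicate 1 level was 137 times the replicate 2 level in VEC and 111 times in VHL. The gap was wide in every family and was 622 times in VEC for H1, 197 for H3, 144 for H4, 94.7 for H2B and 93.4 for H2A. The RNA fraction named in the labels, the replicate number and the form of the alignment name in the file headers divide the libraries in the same way, so they cannot be told apart.

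**Figure D1:**
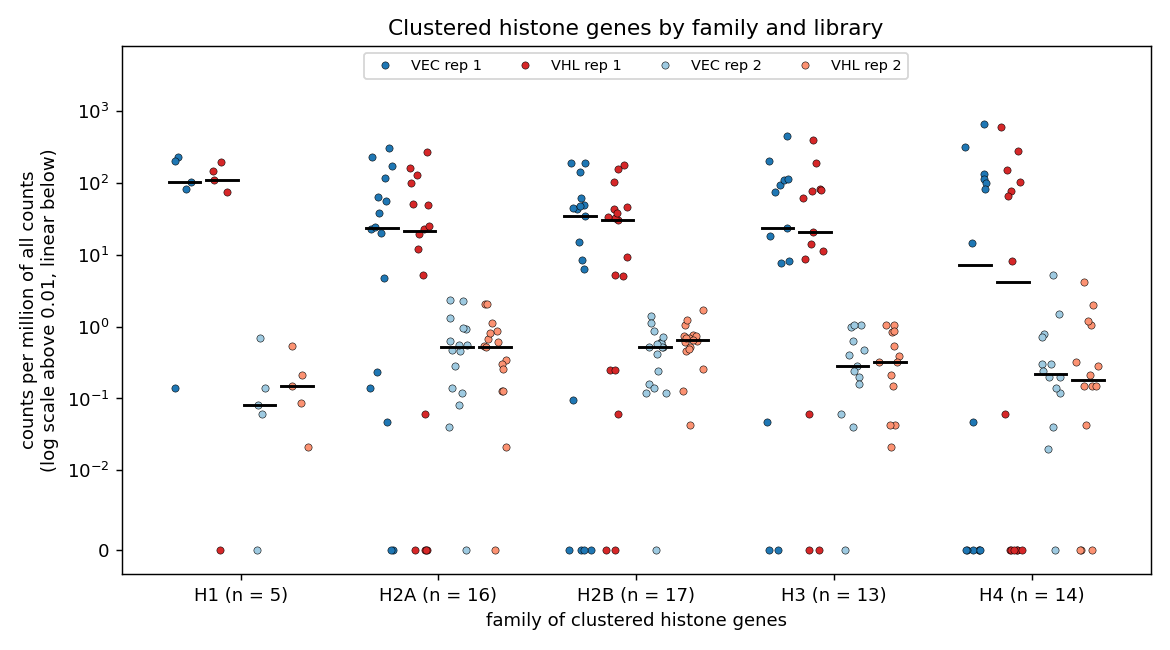
Level of each of the 65 members in each library, in CPM (vertical axis, log scale above 0.01 and linear below), by family on the horizontal axis. Points are genes, black bars are medians over the members of a family, and the members with many reads in replicate 1 lie above their own replicate 2 values.

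Other transcripts known to lack a poly(A) tail did not all follow the histones. RPPH1, the RNA of ribonuclease P, had 103512 and 59134 counts (VEC, VHL) in replicate 1 and 154 and 156 in replicate 2. RMRP, the RNA of ribonuclease MRP, had 48407 and 31253, then 113 and 155, and RN7SK, which holds P-TEFb inactive, had 81892 and 66809, then 733 and 752. These 3 were much higher in replicate 1, as the histones were. SNORD3A, the U3 small nucleolar RNA, lay the other way, with 84 and 38 counts in replicate 1 and 12878 and 4934 in replicate 2. RN7SL1, an RNA of the signal recognition particle, had 6641 and 3757, then 5053 and 1578. For protein-coding genes, the part of all counts was 96.1% and 95.6% in replicate 1, but only 65.7% and 71.9% in replicate 2. Levels of the members, RPPH1, RMRP and RN7SK thus run with the molecule labels, while SNORD3A and the lower protein-coding share of the libraries labelled polyA RNA run against them, and the cause was not tested.

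**Figure D2:**
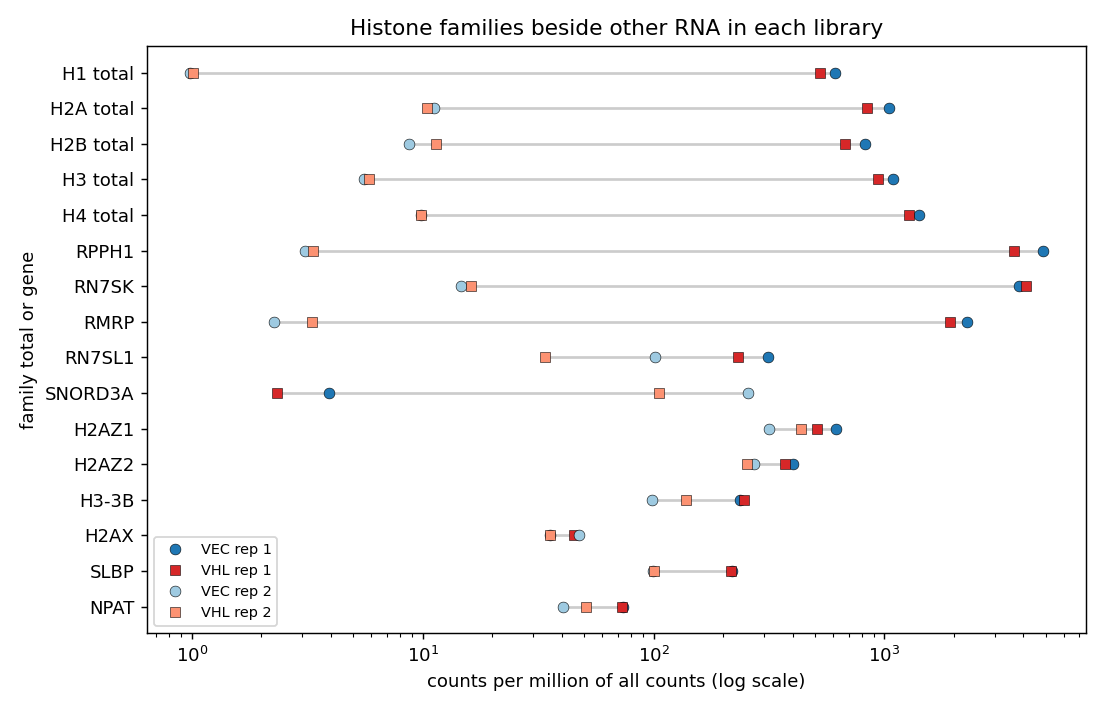
Level of each family total and of named genes in each library, in CPM (horizontal axis, log scale). Circles are VEC and squares VHL, dark for replicate 1 and pale for replicate 2. Histone totals, RPPH1, RN7SK and RMRP span far wider ranges than SLBP, NPAT, H2AZ1, H2AZ2, H3-3B and H2AX, and SNORD3A lies in the opposite order. The replacement variant H3-3A, which differs widely between the replicates, is not drawn.

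The members fell into those with many reads in replicate 1 and those with almost none. In the replicate 1 pair, 44 members had at least 184 counts summed over VEC and VHL, and the other 21 had at most 5, with nothing between. The 21 were 1 H1, 5 H2A, 5 H2B, 3 H3 and 7 H4 genes. H4C7 was at 0 in all 4 libraries. In replicate 2, these 21 held 26.9% of the member counts in VEC and 26.5% in VHL, against 0.0150% in VEC replicate 1. Of the 21, 7 have a RefSeq span that overlaps another gene, as do 4 of the other 44.

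Some of the 21 belong to near-identical copies, for which the assignment of reads is uncertain. H2AC19 had 1 and 0 counts in replicate 1 and 115 and 97 in replicate 2, while its copy H2AC18 had 479 and 194, then 119 and 97. The promoter windows of the 2 genes match at 299 of 299 bases. H4C15 had 0 and 0, then 76 and 94, and H4C14, whose window matches it at 300 of 300 bases, had 305 and 133, then 10 and 10. H3C14 and H3C15 had the same counts in every library, 0 and 0, then 52 and 49, and their windows match at 296 of 296 bases. H4C11 and H4C12 also had equal counts throughout, 0 and 0, then 15 and 7, with 295 of 300 bases shared. How reads that map to several genes were treated is not given in the sources used here.

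Levels between genes were compared per kilobase of RefSeq gene span, as the mean CPM over both replicate 1 libraries, for the 57 members whose span is under 1000 bases. H4C3 was highest of all at 1551 CPM per kb. The highest H3 gene was H3C2 at 816, the highest H2A gene H2AC17 at 590, the highest H2B gene H2BC10 at 379 and the highest H1 gene H1-2 at 287. Over the ranked members with at least 100 counts in the pair, the family medians were 267 for H4, 177 for H1, 166 for H3, 99.2 for H2A and 82.9 for H2B. Expression was concentrated in few genes: H4C3 alone held 13.1% of the member counts in VEC replicate 1, the top 5 members 39.0% and the top 10 members 59.2%.

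In replicate 1, the histone families were at a lower level in VHL than in VEC. The summed level of all members was lower by 0.23 on the log2 scale of CPM (log2 change -0.23, 95% interval -0.24 to -0.22), or 85.3% of the VEC level. The intervals are exact binomial intervals for the ratio of the counts in a pair and cover counting error only, with no replicate check within a pair. H2A went from 1050 to 841 CPM (log2 change -0.32) and H2B from 825 to 672 (-0.30). H3 went from 1093 to 936 (-0.22), H1 from 610 to 527 (-0.21) and H4 from 1412 to 1279 (-0.14). H4 had the smallest difference of the totals, with an interval of -0.17 to -0.12 against -0.35 to -0.29 for H2A, and no test between families was run. H4C3 alone held 13904 of the 30095 H4 counts in VEC. By the median change of single members with at least 20 counts (TMM library sizes), H4 was not the least changed. That median was -0.30 for H4, -0.26 for H3 and -0.25 for H1.

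Among single members in replicate 1, 38 of the 44 with at least 20 counts in the pair were lower in VHL and 6 were higher, on log2 CPM with TMM library sizes and a prior count of 2. Over all 15061 genes with as many counts, 54.8% were lower. The median change of the members was -0.35, against -0.05 for all genes. The counting interval lay wholly below 0 for 37 members, against 30.8% of all genes, and wholly above 0 for 1, against 22.6%. In replicate 2 the interval lay wholly below 0 for 1 of 45 members (H2AC21), against 31.1% of all genes, and wholly above 0 for 7 (H2BC3, H2BC4, H2BC6, H2BC8, H3C2, H4C2 and H4C15), against 29.9%. In replicate 1, none of the 44 members differed by 1 or more in either direction, against 8.30% of all genes. The shares over all genes, here and below, were not matched for counts, on which interval width and large changes depend. The median count of a member was 516 in VEC replicate 1 and 15 in VEC replicate 2. All 12 H2B members counted in replicate 1 were lower, as were 9 of 11 H2A, 8 of 10 H3, 6 of 7 H4 and 3 of 4 H1 members.

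**Figure D3:**
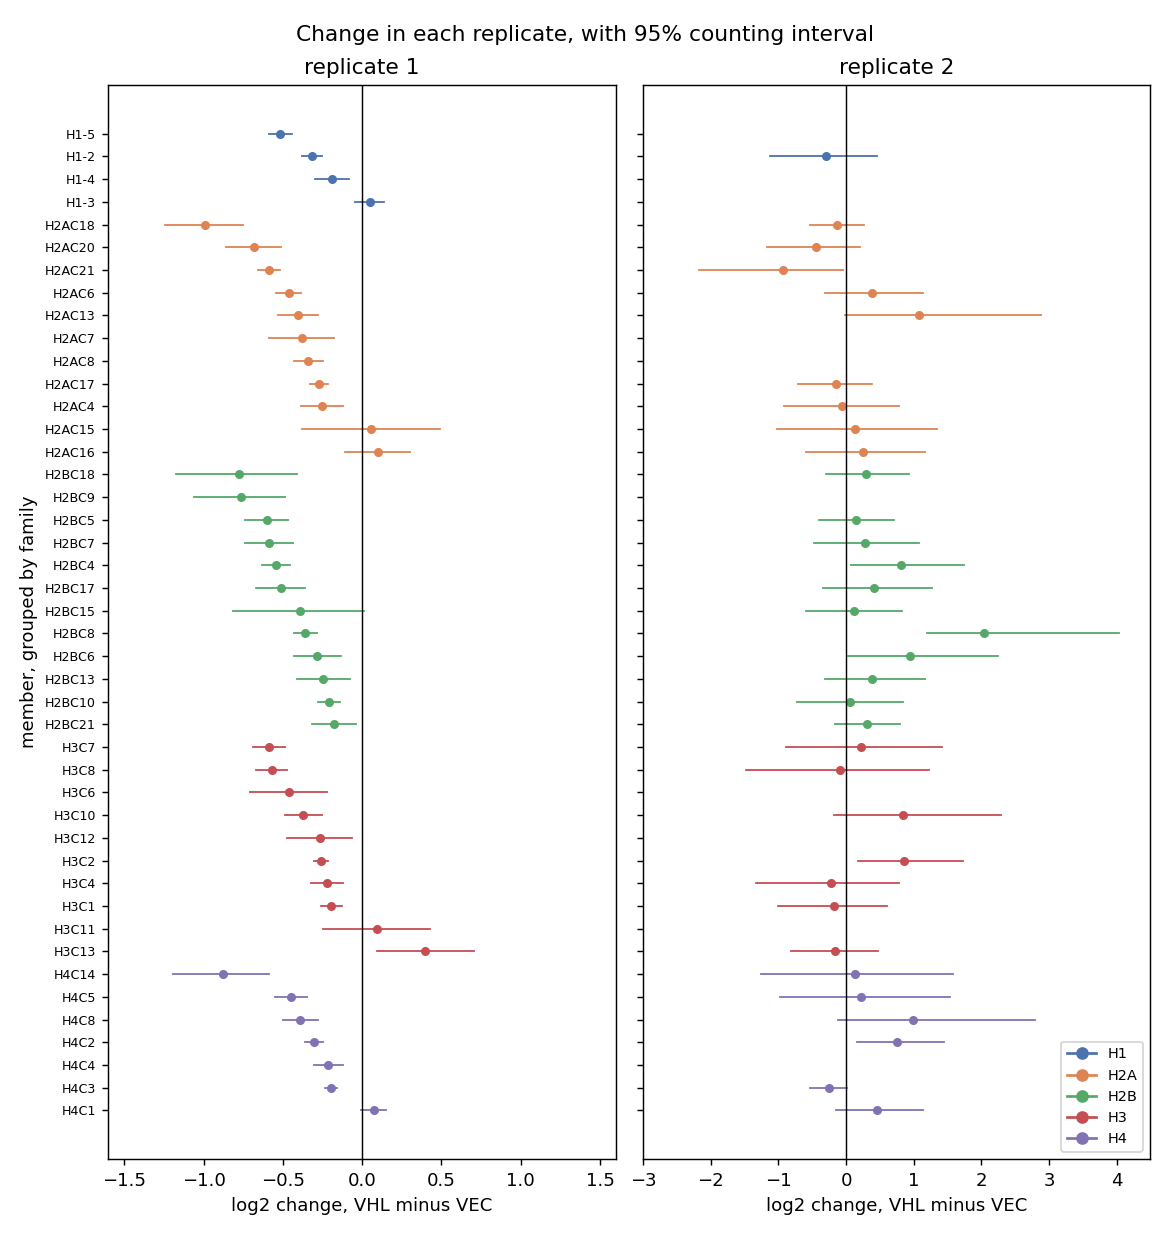
Log2 change, VHL minus VEC, of the 44 members with at least 100 counts in the replicate 1 pair (rows, coloured by family), in replicate 1 (left) and replicate 2 (right, members with at least 20 counts in that pair; the horizontal scales differ). Points are changes and lines 95% counting intervals, cut at the panel edge: most points lie left of 0 in replicate 1, and the replicate 2 intervals are far wider.

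H1 linker histones bind the DNA that enters and leaves the nucleosome. H1-2 had 4837 and 3133 counts in replicate 1 (VEC, VHL) and 35 and 25 in replicate 2. Its change was -0.32 in replicate 1 and -0.30 in replicate 2, with a replicate 2 interval of -1.13 to 0.46 that includes 0. H1-5 had 4266 and 2403 counts, then 7 and 7, and was the lowest of its family in replicate 1 at -0.52. H1-3 had 2151 and 1793, then 4 and 4, and was the one H1 member counted that was higher in replicate 1, at 0.05 with an interval of -0.04 to 0.14 that includes 0.

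H2A pairs with H2B to form the dimers at the outside of the nucleosome. H2AC17 had 6524 and 4350 counts in replicate 1 and 65 and 52 in replicate 2, with changes of -0.27 and -0.16. H2AC21 had 4844 and 2602, then 28 and 12, with changes of -0.59 and -0.93. H2AC6 had 3596 and 2102, then 32 and 38, with changes of -0.46 and 0.38. All 3 were lower in VHL in replicate 1, and H2AC21 also in replicate 2, while the replicate 2 intervals of H2AC17 and H2AC6 include 0. H2AC18 had the lowest change of the members counted in replicate 1, -0.99, and was at -0.13 in replicate 2. H2AC16 had 423 and 365 counts, then 23 and 25, and was highest of its family in replicate 1 at 0.10, with an interval of -0.11 to 0.30.

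Among H2B genes, H2BC10 had 4068 and 2836 counts, then 31 and 29, with changes of -0.21 and 0.06. H2BC8 had 3954 and 2485, then 6 and 30, with changes of -0.36 and 2.04. H2BC6 had 939 and 622, then 12 and 23, with changes of -0.28 and 0.94. These 3 were lower in VHL in replicate 1, and H2BC8 and H2BC6 were higher in replicate 2, where the H2BC10 interval of -0.72 to 0.84 includes 0. H2BC18 was the lowest H2B gene in replicate 1, with 182 and 85 counts (-0.78), and had 44 and 49 in replicate 2 (0.30). Its RefSeq span of 29682 bases overlaps FCGR1A, and which gene its reads came from was not tested. H2BC21 had the smallest difference among H2B genes in replicate 1, with 1040 and 742 counts (-0.18), and had 71 and 79 in replicate 2 (0.30).

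H3 and H4 form the central tetramer of the nucleosome. H3C2 had 9436 and 6350 counts, then 24 and 41, with changes of -0.26 and 0.86. H3C1 had 4322 and 3044, then 32 and 25, with changes of -0.19 and -0.18. H3C8 had 2390 and 1296, then 12 and 10, with changes of -0.57 and -0.08. All 3 were lower in VHL in replicate 1, and H3C2 was higher in replicate 2. H3C7, with 2349 and 1261 counts, was the lowest H3 gene in replicate 1 at -0.59, and with 14 and 15 counts stood at 0.22 in replicate 2. H3C13 was the one member whose replicate 1 interval lay above 0: it had 173 and 184 counts (0.40, interval 0.09 to 0.71), then 49 and 39 (-0.16).

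H4C3 had 13904 and 9797 counts in replicate 1 and 262 and 197 in replicate 2, with changes of -0.19 and -0.25. H4C2 had 6784 and 4427, then 36 and 56, with changes of -0.30 and 0.75. H4C1 had 2853 and 2420, then 39 and 49, with changes of 0.07 and 0.46. H4C3 was lower in VHL in replicate 1, and its replicate 2 interval of -0.53 to 0.02 includes 0. Both intervals of H4C1 include 0. H4C14 was the lowest H4 gene in replicate 1 at -0.88 and stood at 0.13 in replicate 2.

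H2A and H2B genes often share 1 promoter region and are read in opposite directions. In 10 such pairs, RefSeq starts lay 194 to 248 bases apart. Both genes had at least 100 counts in the replicate 1 pair in 7 of them and at most 5 in the other 3, and no pair was mixed. Both genes were lower in VHL in replicate 1 in 6 of the 7. In the remaining pair, H2AC15 had 100 and 84 counts (0.06) and H2BC15 had 134 and 82 (-0.39).

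In replicate 2 most members were not lower in VHL. The summed level of all members had a log2 change of 0.09 (interval -0.01 to 0.18), from 1816 counts in VEC and 1795 in VHL, and turned to -0.046 with protein-coding counts as the library size. Of 45 members with at least 20 counts in the pair, 15 were lower and 30 higher, with a median change of 0.15 against -0.01 for all genes, and 51.4% of all 24092 genes were lower. Of these 45, 3 differed by 1 or more, all higher in VHL (H2BC8, H2AC13 and H2BC3), against 8.12% of all genes that differed by as much in either direction. With library sizes taken from protein-coding counts, 23 of the 45 (51.1%) were lower in replicate 2, while the median of all genes moved to -0.20 and that of the members to -0.02. In replicate 1 the same scaling left 38 of 44 lower, with the members at -0.26 and all genes at 0.04.

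The H2B family differed most between the replicates. Its total went from 8.72 to 11.4 CPM in replicate 2 (log2 change 0.38, interval 0.20 to 0.57), and all 14 of its members counted were above 0. The total was 0.25 with protein-coding counts as the library size, and H2BC10 turned to -0.12 with that scaling and to -0.03 with DESeq2 size factors. H2BC10 was not the member nearest 0, as the lowest of the 14 changes was 0.04. Single changes under other scalings are given for named members only, so further H2B members may turn as well. H2A went from 11.2 to 10.5 CPM (-0.10), H3 from 5.56 to 5.86 (0.08), H1 from 0.979 to 1.01 (0.04) and H4 was at 9.81 and 9.80 (-0.00), with intervals that include 0 for these 4 families. Of the 34 members with at least 20 counts in both pairs, 10 were lower in both, against 31.8% of all genes, and 20 were lower in replicate 1 and higher in replicate 2. A further 1 was higher then lower, and 3 were higher in both.

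**Figure D4:**
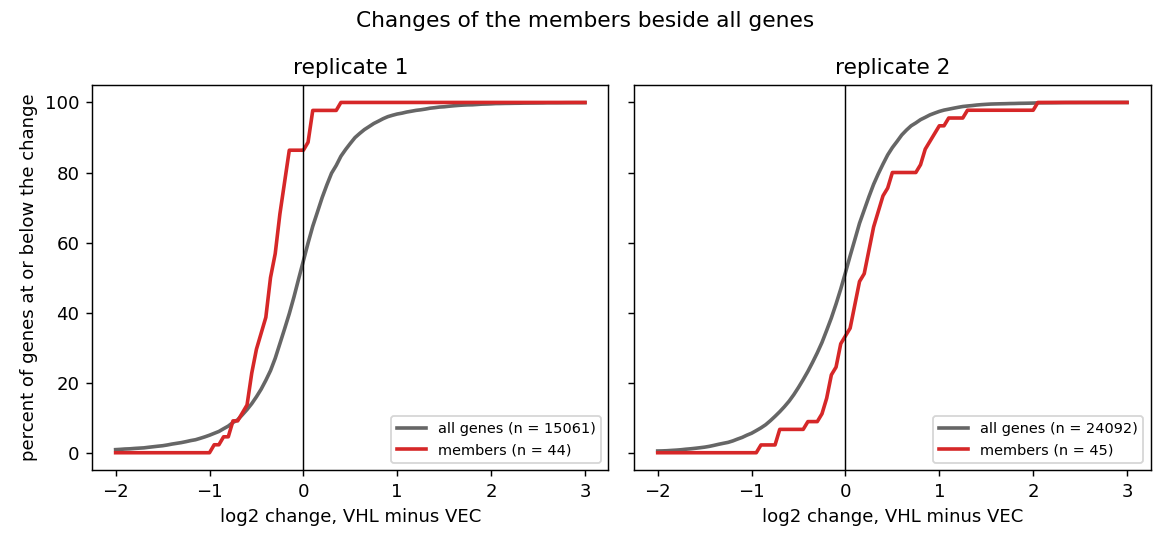
Percent of genes (vertical axis) at or below each log2 change, VHL minus VEC (horizontal axis), for the members (red) and all genes (grey) with at least 20 counts in the pair. In replicate 1 the members' curve lies left of that of all genes over most of its range, with a median of -0.35 against -0.05, and in replicate 2 it lies to the right, with 0.15 against -0.01.

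No member passed the test across libraries. Of the members, 52 passed the filter on low counts. The edgeR quasi-likelihood test with group as its only term called 0 of them (adjusted p = 0.999991 for each, unadjusted p from 0.623 to 0.990, and 0 under 0.05), and 0 of all 24417 genes (0%). Since that test called no gene at all, its count of 0 says nothing particular of the members. With the replicate number as a block it called 0 members, against 3.10% of all genes, with 2 members under an unadjusted 0.05. Among 52 members a count of 0 lies near that share and says little of them. The smallest adjusted p in that edgeR fit was 0.185, for H2AC21 (log2 change -0.68, SE 0.27). The median change of the members that passed was -0.29 in the first fit and -0.19 in the second, against -0.03 for all genes in both. The first fit's changes follow replicate 1, which holds most member counts, so its median is no separate evidence of a decrease. For H2BC8 that fit gave -0.35, with -0.36 in replicate 1 and 2.04 in replicate 2. The median of the members counted in replicate 2 was 0.15.

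Genes that make and process histone mRNA did not pass either test. SLBP, which binds the stem-loop, had 4673 and 3523 counts in replicate 1 and 4959 and 4700 in replicate 2, with changes of -0.10 and 0.08. NPAT had 1566 and 1181, then 2038 and 2377, with changes of -0.10 and 0.38. Of the 22 genes of the histone mRNA list, none was called with or without the block, against 3.10% and 0% of all genes. In a list this short, a count of 0 says little of its genes. Of the 22, 11 were lower in replicate 1 and 6 in replicate 2, and the medians were -0.01 and 0.11. ERI1, an exonuclease that trims the histone stem-loop, had changes of -0.31 and 0.13, and CPSF2, a subunit of the cleavage complex, 0.18 and 0.50. The summed level of this list in replicate 1 was 1.84 times that in replicate 2 in VEC, far from the 137 times of the members.

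Genes of DNA replication, many of which are most active around S phase, had medians near that of all genes. None of 20 was called with or without the block (3.10% and 0% of all genes), and the medians were -0.05 and -0.09. PCNA, the sliding clamp, had 10002 and 7193 counts, then 12869 and 9739, with changes of -0.16 and -0.24. MCM4 and MCM7, subunits of the replicative helicase, had changes of 0.08 and -0.03 in replicate 1 and -0.03 and -0.22 in replicate 2.

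Most replacement histone variants have mRNAs with poly(A) tails, made outside S phase too. The sum of the listed variants in replicate 1 was 1.37 times that in replicate 2 in VEC. That sum hides H3-3A, an H3.3 gene, which had 140 and 78 counts, then 13264 and 11291, so that it was far higher in replicate 2, unlike the members as a whole. Of 11 genes, 10 passed the filter and none was called with or without the block (3.10% and 0% of all genes). The medians of this list were -0.11 and 0.05. H2AX, the variant phosphorylated at DNA breaks, had 758 and 736 counts, then 2387 and 1653. H2AZ1 and H2AZ2, the H2A.Z genes, had changes of -0.35 and -0.19 in replicate 1 and 0.52 and -0.05 in replicate 2, and H3-3B, the other H3.3 gene, had -0.03 and 0.54. Among 15 histone chaperones none was called with or without the block (again 3.10% and 0% of all genes), with medians of 0.06 and 0.03. NAP1L1, an H2A and H2B chaperone, had changes of 0.17 and 0.58, ATRX, which acts with DAXX to place H3.3, had 0.24 and 0.47, and SUPT16H, a subunit of FACT, had 0.04 and 0.32.

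Of 14 other RNAs without a poly(A) tail, 13 passed the filter and 3 were called lower with the block and none without it. Over all genes, 3.10% were called in either direction with the block and 0% without it. In that blocked edgeR fit the log2 change was -1.01 for RN7SL1 (adjusted p = 0.00121), -0.76 for RN7SL2 (adjusted p = 0.0353) and -1.09 for SNORD3A (adjusted p = 0.0013). RN7SL2 had changes of 0.03 in replicate 1 and -1.56 in replicate 2. The list's medians were -0.17 and 0.26, lower in replicate 1 and higher in replicate 2, as for the members. RPPH1 had changes of -0.50 and 0.17, RMRP -0.32 and 0.60, and RN7SK 0.02 and 0.20. Their part in the members' changes was not tested.

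Among mRNAs with poly(A) tails, none of 6 housekeeping genes was called with or without the block (3.10% and 0% of all genes). Their medians were -0.36 and -0.23. GAPDH, a glycolytic enzyme, had changes of -0.74 and -1.05, EEF1A1, an elongation factor, -0.34 and -0.12, and PPIA, a peptidyl-prolyl isomerase, -0.51 and -0.23. The replicate 1 median of this short list is thus as low as that of the members. Of 8 renal markers, CA9, a target of hypoxia-inducible factors, was called lower with the block by edgeR (1562 and 29 counts, then 2820 and 57; log2 change -5.45, adjusted p = 2.04e-76). LRP2, an endocytic receptor, had changes of -0.79 and -0.70, VIM, an intermediate filament, -0.57 and -0.61, and KRT8, a keratin, -0.26 and -0.43. Of 10 markers of leukocytes, endothelium and fibroblasts, 3 passed the filter and none was called. CD68, a macrophage lysosomal protein, had 407 and 217 counts, then 1925 and 1505. DCN, a matrix proteoglycan, had 0 and 0, then 15 and 18.

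Members also differed in how far the replicates lay apart. Among members with at least 100 counts in the replicate 1 pair, the ratio of replicate 1 to replicate 2 CPM had a median of 30.4 over 7 genes on chromosome 1 and 238 over 36 on chromosome 6. On chromosome 1 it ranged from 7.14 for H2BC18, whose span overlaps another gene, to 474 for H2AC21. On chromosome 6 it ranged from 7.71 for H2BC15 to 2075 for H3C12. H2AC7 had 516 and 319 counts in replicate 1 and 0 in replicate 2, so that no ratio was formed. Members whose RefSeq span is 1000 bases or longer, which include those with more than 1 annotated transcript, had a median ratio of 101 over 6 genes, against 238 over 37 shorter ones.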

How the data were processed

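RNA-seq was analysed for 2 VEC and 2 VHL libraries of UM-RC-2 cells. The authors deposited raw counts per gene symbol from hg19 alignments, per the file headers. The submitters' processing notes name featureCounts and HOMER, without versions or roles, and the use of strand and of reads with several matches is not given in the sources used here. The deposited counts sum to 16230291 to 50027348 per library. The share on protein-coding genes was 96.1% and 95.6% in replicate 1 (VEC, VHL), labelled total RNA, and 65.7% and 71.9% in replicate 2, labelled polyA RNA. The 4 H3K27ac tables were not used here.

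Counts were tested in R 4.3.3 with edgeR 4.0.16 (filterByExpr, TMM, glmQLFit and glmQLFTest, two-sided), with Benjamini-Hochberg adjustment over 24417 genes and a threshold of 0.05. Group was the only term of the main fit, and a fit with the replicate number as a block was the alternative. The numbers were taken to pair the libraries because the molecule label and the alignment name form are shared within a number. Deviations from the group means correlated at 0.983 between same-numbered libraries over 21673 genes. On simulated counts the blocked fit recovered most of the changed genes and the group-only fit none. The simulation used separate means for each replicate number, the dispersion of the blocked fit and changes far larger than those of the members. Its outcome therefore follows from its setting and cannot show what either fit would detect among the members. DESeq2 1.42.0 was a further alternative. Changes within a pair used a prior count of 2, and family totals used CPM of all counts.

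Members and lists were chosen with earlier results of these data known. Named members were, in each family, the top 3 per kb and the lowest and highest replicate 1 change among those with at least 100 counts in the pair. Any called in a fit, or changed by 1 or more (log2) with the same sign in both pairs with at least 20 counts in each, would also have been named, and there were none. Of each list the 3 most abundant genes and those called with the block were named, besides VHL, SLBP, NPAT and H2AX. Members with near copies, H2AC15 with H2BC15, H3C12, H2AC7, H2AC13, H2BC3, H2BC4, H3-3A and the markers at 0 were named after their values were seen. The ranking was planned per coding length, and RefSeq gene span was used in its place because no protein table was used. RefSeq tables of GRCh38.p14 gave names, spans and promoter windows only.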

Additional observations from a re-analysis of the deposited data

How the results depend on the processing

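No member was called under any of the alternatives run, which were DESeq2 size factors, 2 other filters, DESeq2, leaving out each library, the replicate block, and the block combined with size factors, no filter or DESeq2. With the replicate block, the genes called in the lists numbered 4 in place of 0, and the log2 change of VHL was 1.36, now past the threshold, in place of 1.24. DESeq2 called 1 list gene, CA9. Leaving out a library moved the VHL change between 0.74 and 2.04 and called no list gene (0 in each), and moved the members' median in the group-only fit to 6.12 without VEC replicate 1, -6.03 without VHL replicate 1, -1.23 without VEC replicate 2 and 0.63 without VHL replicate 2, since the groups then differ in the share of replicate 1. Among the members, the list genes and VHL, the block changed no other call, while over all genes it called 756 in place of 0. The group-only edgeR alternatives called 0 of all genes and DESeq2 without the block called 6, so they could hardly have called a member and show no stability. The fits with the block called 640 to 1215 genes, a small share of those tested, so a count of 0 members says little there too.

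In replicate 1, 38 of 44 members were lower under 4 alternatives and 34 of 40 without members that overlap another gene. In replicate 2, members lower numbered 23 of 45 with protein-coding library sizes, 19 of 45 with DESeq2 size factors and 4 of 9 with at least 100 counts. The total of all members in replicate 1 was -0.31 with TMM library sizes (an alternative chosen after seeing the data, as were the combined fits and the overlap and replicate 1 minimum sets) and -0.27 without the most abundant member of each family. In replicate 2 it was -0.046 with protein-coding counts. Of 132 recomputed changes of named members, 120 lay within the counting interval. The 12 outside were all replicate 1 changes with protein-coding library sizes, for 12 of the 22 named members. All recomputed replicate 2 changes lay within, but those intervals are far wider, so this says little of stability. Of 40 recomputed family totals, 29 lay within the interval and 11 outside, among them every family's replicate 1 total with TMM library sizes. The low replicate 2 counts limit what that pair can show of single members.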
